A study of Mus musculus with 12 samples.

Results

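The genes described here encode secreted ribonucleases of the RNase A family. They are the eosinophil-associated ribonucleases Rnase2a, Rnase2b, Ear1, Ear2, Ear6 and Ear10, and the related Rnase4, Rnase6 and Ang, the angiogenin gene. They were chosen by symbol, and all 9 were found among the 34327 genes of the expression table. The study asked how macrophages change their gene expression with the density of the collagen around them. Bone marrow-derived macrophages (BMDMs) were grown from wild-type C57BL/6J mice in medium conditioned by L929 cells, which supply the macrophage growth factor. They were kept on tissue culture (TC) plates, or embedded in floating gels of rat tail collagen I at 2 mg/ml (low collagen) or 7 mg/ml (high collagen). On each surface they were left untreated or given murine IL-4 at 20 ng/ml, labelled as 24 hours, which makes 6 conditions with 2 RNA-seq libraries each. The labels do not say whether the 2 libraries of a condition came from separate cultures or animals, so p-values measure only the spread between these libraries, which may be technical.

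Ribonucleases of this family are small enzymes held together by disulfide bonds and released from the cell, and several of them kill microbes or act as signals to other cells. The eosinophil-associated group was named after proteins of eosinophil granules and has expanded in rodents into many near-identical genes, some of which macrophages also express, Ear1 and Ear2 among them in alveolar macrophages. IL-4 is the type 2 cytokine that acts through STAT6 and drives the alternative activation of macrophages. Angiogenin promotes vessel growth and cleaves tRNA in stressed cells, and its gene lies with Rnase4 in a single locus in which both genes start from shared promoters.

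All 9 genes lie on chromosome 14 of GRCm38, are annotated as protein coding and have coding sequences of 435 to 468 bases. Ear1 (43818765 to 43875517), Ear10 (43922720 to 43923559) and Ear2 (44102654 to 44103534) form a first group. Rnase4 (51091077 to 51106151), Ang (51091150 to 51102009), Rnase6 (51123908 to 51132187), Rnase2b (51162260 to 51163018), Rnase2a (51255262 to 51256112) and Ear6 (51853699 to 51854643) lie farther along the chromosome.

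The sequences just before the gene starts are shown because they set the 2 genes that responded most to IL-4, Rnase2a and Ear2, beside Ear1, a near copy of Ear2 that was listed at 0 in every library, and beside the shared start of Rnase4 and Ang. They are the 250 bases before the RefSeq start of each gene on GRCm38.p6, 5′ to 3′ on the strand of the gene, and capitals mark matches to TTGCNNAA, a short form of the C/EBP site, read on both strands.
Rnase2a (chr14:51256113-51256362, minus strand): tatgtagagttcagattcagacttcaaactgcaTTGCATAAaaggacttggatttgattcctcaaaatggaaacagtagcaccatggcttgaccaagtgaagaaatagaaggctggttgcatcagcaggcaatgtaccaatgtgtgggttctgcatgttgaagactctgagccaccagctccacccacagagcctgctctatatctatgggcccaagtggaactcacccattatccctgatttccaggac
Ear2 (chr14:44102404-44102653, plus strand): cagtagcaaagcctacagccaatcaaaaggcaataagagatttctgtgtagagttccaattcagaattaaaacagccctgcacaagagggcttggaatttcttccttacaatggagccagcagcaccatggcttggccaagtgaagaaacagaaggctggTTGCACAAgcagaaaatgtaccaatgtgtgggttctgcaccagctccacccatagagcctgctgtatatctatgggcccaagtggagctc
Ear1 (chr14:43819640-43819889, minus strand): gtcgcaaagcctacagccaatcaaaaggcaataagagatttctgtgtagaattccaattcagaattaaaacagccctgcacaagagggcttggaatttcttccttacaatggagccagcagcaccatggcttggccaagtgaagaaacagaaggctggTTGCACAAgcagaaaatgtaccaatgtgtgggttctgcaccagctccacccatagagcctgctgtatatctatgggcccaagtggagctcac
Rnase4 and Ang (chr14:51090827-51091076, plus strand): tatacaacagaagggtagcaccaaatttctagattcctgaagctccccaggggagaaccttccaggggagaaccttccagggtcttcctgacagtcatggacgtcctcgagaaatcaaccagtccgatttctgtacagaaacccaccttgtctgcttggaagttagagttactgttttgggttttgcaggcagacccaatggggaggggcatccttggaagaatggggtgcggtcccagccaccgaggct

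The windows of Ear2 and Ear1 were 99.2% identical, at 246 of 248 aligned bases, and the windows of Ear2 and Ear10 were 94.7% identical. Rnase2a was 91.3% identical to Rnase2b and 86.9% identical to Ear2 in this window. RefSeq gives Rnase4 and Ang the same first window, base for base. TTGCNNAA was found in a window of 7 of the 9 genes, Rnase2a, Rnase2b, Ear1, Ear2, Ear10, Rnase4 (in a second window) and Rnase6. It was found in 9.57% of all 32817 distinct windows. Rnase4 and Rnase6 have more than a single window, so the count of genes and the share of windows are unlike measures. The windows of the Ear and Rnase2 genes are near copies of each other. Rnase2b, Ear1, Ear2 and Ear10 all had TTGCACAA, at −118 to −90 from the start, so their matches do not count as separate observations. The match of Rnase2a was another one, TTGCATAA at −217, and its window had no match at the place of the Ear2 match. The STAT pattern TTCNNNGAA, held by 7.01% of all windows, and its form with a spacer of 4 bases, held by 5.85%, were in none of the 9 genes' windows. These matches describe letters only and say nothing of which factor binds.

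The abundances were estimated from 38-base paired reads by kallisto, which divides a read among all transcripts that hold its 31-base words. Of the words in Ear2 transcripts, 40.2% also occur in Ear1 and 34.4% in Ear10, and 272 of 689 occur in no other gene. Ear1 has 180 words of its own among 683 and Ear10 has 327 among 648. Rnase2a is far more separable, with 618 of its 660 words in no other gene. Rnase2b (7.41% of words shared) and Ear6 (8.48%) are similar in this respect, and Rnase6 (0.827%) shares almost nothing. Ang shares 13.7% of its words with Rnase4 and 7.86% with Ang2, and the annotation gives Rnase4 and Ang 219 exon bases in common, none of them coding (0). The values of Ear1, Ear2 and Ear10, and the part of Rnase4 and Ang that lies in their common exons, therefore depend on how kallisto divided reads.

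**Figure D1:**
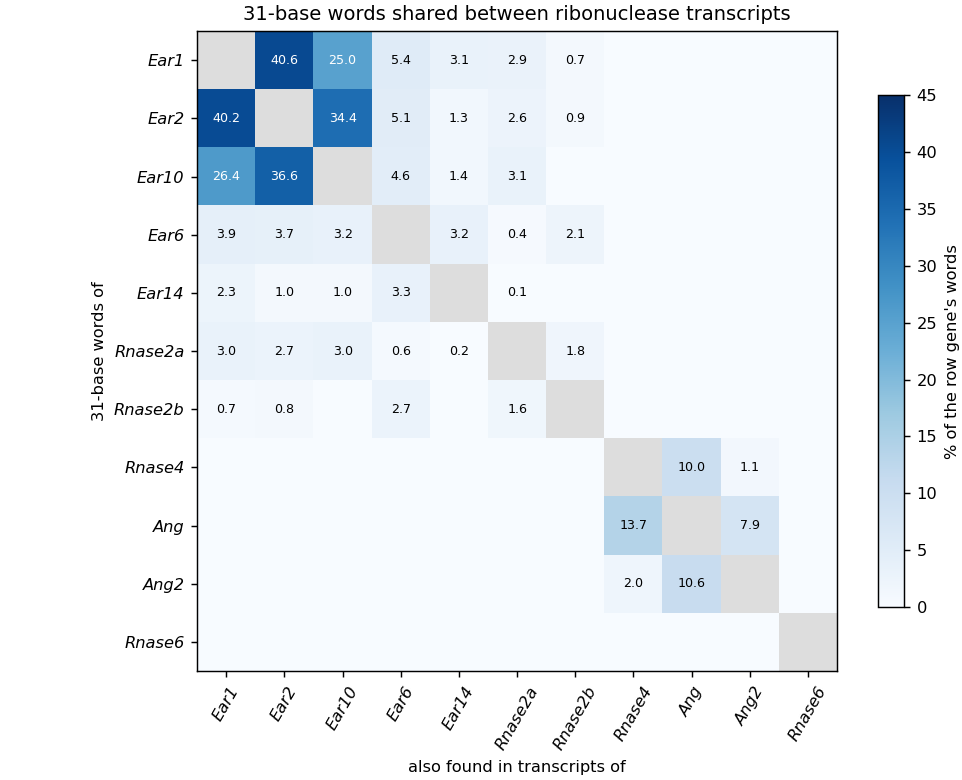
Share of the 31-base words of each gene (rows) that also occur in transcripts of another gene (columns), in percent of the row gene's words. The dark block is Ear1, Ear2 and Ear10, with 40.2% of Ear2 words in Ear1, while the Rnase2a row stays at or under 3.0% in every column.

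The values are TPM, the share of a library's transcripts that a gene holds, which are corrected for transcript length and so can be set side by side between genes, but which carry no sequencing depth. No counting interval can be given for a low value, and a gene listed at 0 may have been transcribed below detection or have lost its reads to a relative. The correlation between the 2 libraries of a condition was 0.980 to 0.985. Genes were compared with limma on log2(TPM + 1), over all genes whose TPM averaged 1 or more, and were called at a Benjamini-Hochberg adjusted p under 0.2, the threshold of the study. Differences from these fits are given on the log2 scale. An exact permutation test of 2 libraries against 2 has 0.33 as its smallest p, and the p-values given here therefore lean on the variance that limma pools over genes. Of the 9 genes, 5 passed the filter: Rnase2a, Ear2, Rnase4, Rnase6 and Ang. Rnase2a and Ear2 passed it only through their IL-4 libraries, so that some difference between conditions was bound to appear in them. In these bulk samples, fewer cells that express a gene and less RNA per cell cannot be told apart.

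Rnase2a, which has the older name Ear11, went from at or near 0 to one of the abundant transcripts of the cell with IL-4. On TC plates it was at 0 and 0.865 TPM untreated and at 147 and 120 TPM with IL-4. In low-collagen gels it was listed at 0 in both untreated libraries and reached 929 and 962 TPM with IL-4. High-collagen gels gave 0 and 0.273 TPM untreated and 468 and 437 TPM with IL-4. The order with IL-4 was low collagen (946 ± 23.7 TPM, SD, n = 2), high collagen (452 ± 22.1 TPM) and TC plates (134 ± 19.5 TPM), with no overlap between neighbours, while the untreated conditions overlapped. Its mean with IL-4 was 7.07-fold higher in low-collagen gels and 3.38-fold higher in high-collagen gels than on TC plates. In both low-collagen libraries with IL-4 it was the gene ranked 187 of all genes by TPM, against ranks 313 and 335 in high-collagen gels and 1042 and 1314 on TC plates.

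Ear2 showed the same order at levels far below those of Rnase2a. It was listed at 0 in the 4 untreated libraries of TC plates and low-collagen gels, and at 0.616 and 0.257 TPM in untreated high-collagen gels. IL-4 gave 1.12 and 1.85 TPM on TC plates, 22.3 and 31.6 TPM in low-collagen gels, and 5.50 and 5.18 TPM in high-collagen gels. The low-collagen libraries stood 18.2-fold above TC plates and 5.05-fold above high-collagen gels in their means, and the gap between the 2 low-collagen libraries (26.9 ± 6.56 TPM) was the widest spread of any condition for this gene. Rnase2a and Ear2 were named by the study on these same samples for their fall in high-collagen gels, so their direction there is not independent evidence.

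The other 4 eosinophil-associated genes stayed under 2 TPM. Rnase2b, whose window before the start was the nearest to that of Rnase2a among the genes compared, was highest in low-collagen gels with IL-4. It was at 1.49 and 1.68 TPM there, and its 10 other libraries lay between 0 and 0.662 TPM. Its low-collagen libraries with IL-4 thus overlapped with no other condition. Ear6 was above 0 in 4 libraries, all of them with IL-4, and never exceeded 0.237 TPM. Ear10 was above 0 in a single library, the second of low-collagen gels with IL-4, at 0.367 TPM. Ear1, whose window before the start is nearly that of Ear2, was listed at 0 in all 12 libraries.

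Because reads of these genes can be exchanged, their TPM were also summed. The sum of Ear1, Ear2, Ear6, Ear10 and Ear14, a further relative that was at 0 throughout, reached 27.3 ± 6.78 TPM (SD, n = 2) with IL-4 in low-collagen gels. It was 5.44 ± 0.356 TPM in high-collagen gels with IL-4 and 1.60 ± 0.684 TPM on TC plates with IL-4. Ear2 thus made up nearly all of the sum, and the order of conditions did not depend on how reads were divided within this set. The set leaves out Rnase2a, which shares 18 words with Ear2 and was far more abundant with IL-4. It also leaves out the pseudogenes Ear-ps2 and Ear-ps9, which share 182 and 165 words with Ear2. Whether Ear2 holds reads of these genes was not tested. The sum of Rnase2a and Rnase2b was 947 ± 23.8, 453 ± 21.6 and 134 ± 19.5 TPM in the same conditions, almost all of it Rnase2a.

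**Figure D2:**
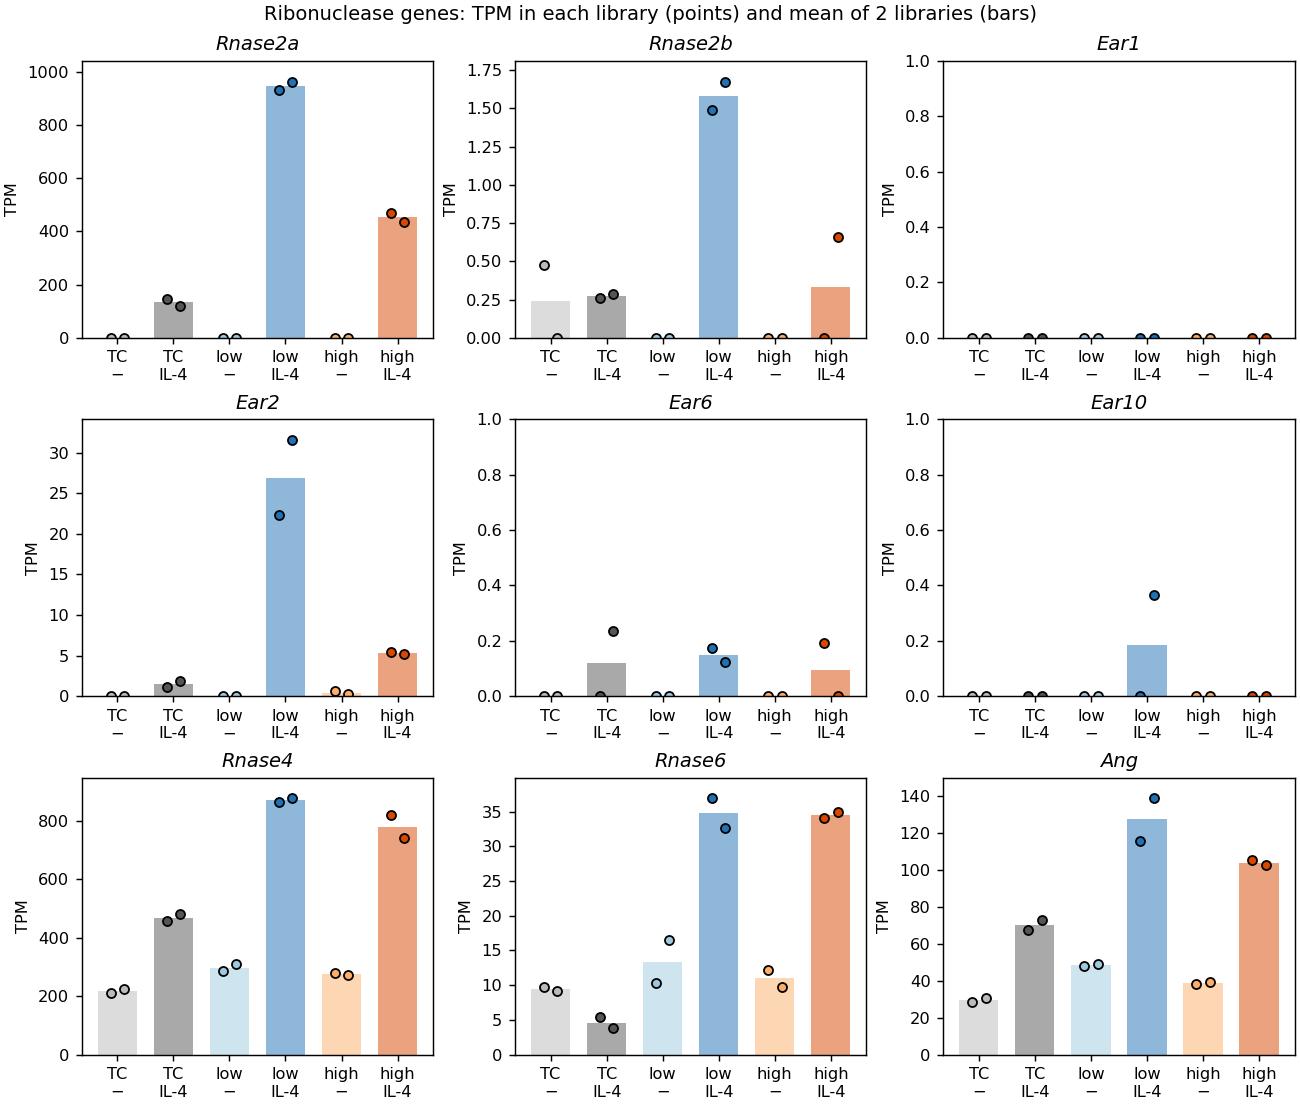
TPM of each of the 9 genes in every library (points) and the mean of 2 libraries (bars), for TC plates (TC), low-collagen gels (low) and high-collagen gels (high), untreated (−) or with IL-4. Each panel has its own axis from 0, so Rnase2a reaches 962 TPM while Ear10 peaks at 0.367 TPM and Ear1 stays at 0.

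Rnase4 was the most abundant of the 9 genes without IL-4, and it rose with IL-4 on every surface. Untreated, it was at 209 and 224 TPM on TC plates, 287 and 310 TPM in low-collagen gels and 281 and 274 TPM in high-collagen gels. With IL-4 it was at 457 and 481 TPM on TC plates, 864 and 878 TPM in low-collagen gels and 820 and 742 TPM in high-collagen gels. None of the 6 conditions overlapped, and the IL-4 libraries were all above the untreated ones. The means rose 2.16-fold, 2.92-fold and 2.81-fold on TC plates, in low-collagen gels and in high-collagen gels.

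Ang followed Rnase4 at a lower level. It went from 28.6 and 30.6 TPM to 67.4 and 72.8 TPM with IL-4 on TC plates, a 2.37-fold rise. In low-collagen gels it went from 47.7 and 49.1 TPM to 116 and 139 TPM, or 2.62-fold, and in high-collagen gels from 38.1 and 39.0 TPM to 105 and 102 TPM, or 2.69-fold. Its order of conditions was that of Rnase4, again with no overlap between neighbours. The ratio of Rnase4 to Ang TPM stayed between 6.01 and 7.81 over the 12 libraries, with a median of 7.14, although Rnase4 itself varied 4.19-fold and Ang 4.85-fold. The part that their common exons have in this ratio was not tested.

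**Figure D3:**
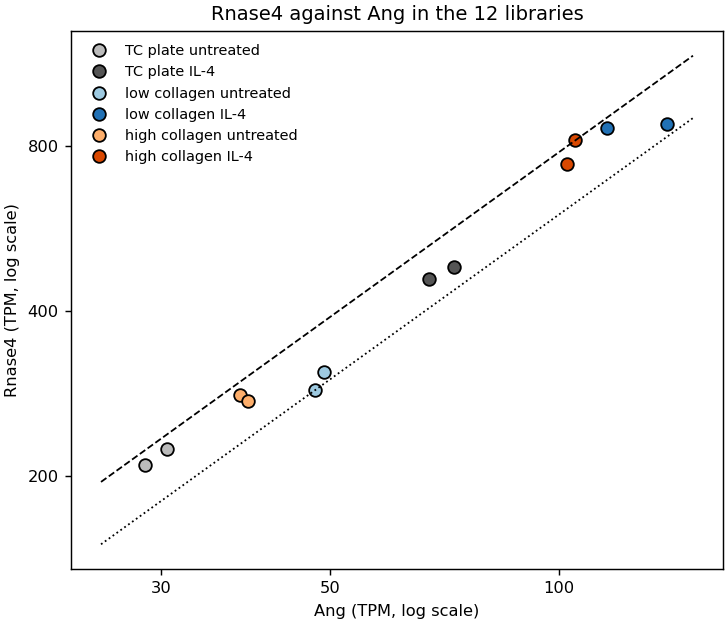
Rnase4 against Ang TPM in the 12 libraries, both on log axes, coloured by condition. The dotted and dashed lines are the lowest (6.01) and highest (7.81) ratio of Rnase4 to Ang, and the libraries line up between them from untreated TC plates at the lower left to IL-4 gels at the upper right.

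Rnase6, an antimicrobial ribonuclease of monocytes and macrophages, was the gene whose direction with IL-4 differed between plates and gels. On TC plates it went from 9.78 and 9.14 TPM down to 5.40 and 3.83 TPM with IL-4, a 2.05-fold fall. In low-collagen gels it went from 10.4 and 16.5 TPM up to 36.9 and 32.7 TPM, and in high-collagen gels from 12.2 and 9.76 TPM up to 34.1 and 34.9 TPM. These are rises of the means of 2.59-fold and 3.14-fold. With IL-4 the 2 gel conditions overlapped, and the low-collagen mean was 7.53-fold that of TC plates. The lowest condition of all was TC plates with IL-4, which lay below the untreated libraries of every surface, and the untreated conditions of the gels and plates overlapped in part.

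The make-up of the group changed with IL-4. In the untreated libraries Rnase4 held 82.5% to 84.7% of the summed TPM of the 9 genes and Rnase2a at most 0.327%. With IL-4 the share of Rnase2a was 21.7% and 17.6% on TC plates, 47.2% and 47.1% in low-collagen gels, where it exceeded Rnase4, and 32.7% and 33.0% in high-collagen gels. The summed TPM went from 248 and 265 to 679 and 680 on TC plates. It went from 345 and 375 to 1970 and 2045 in low-collagen gels and from 332 and 323 to 1433 and 1322 in high-collagen gels.

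**Figure D4:**
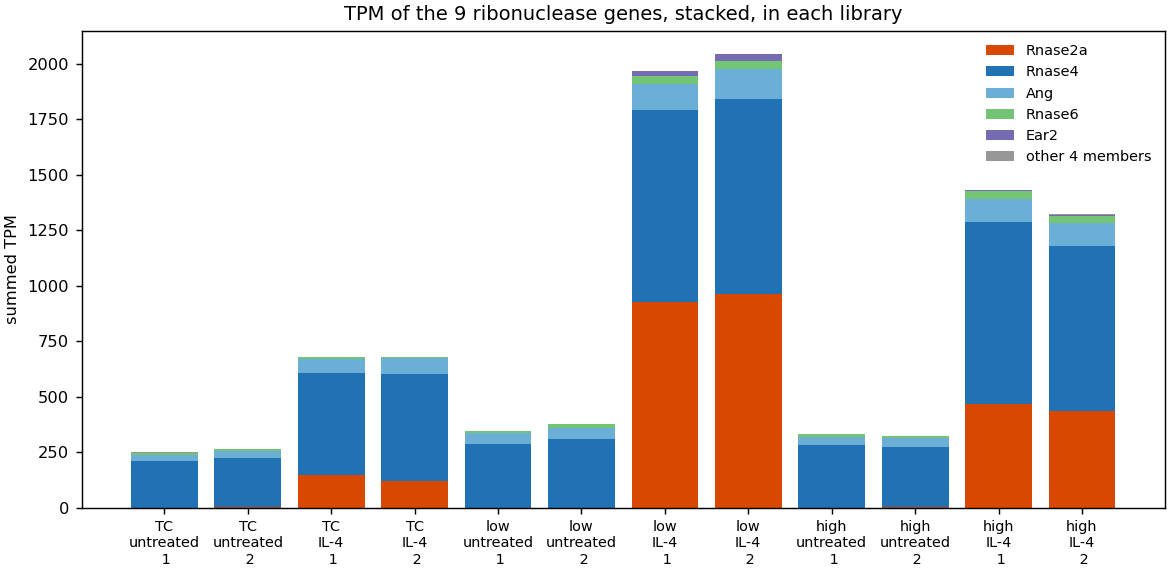
Summed TPM of the 9 genes in each of the 12 libraries, stacked by gene. The low-collagen libraries with IL-4 reach 1970 and 2045 TPM with Rnase2a as the largest part (47.2% and 47.1%), and Rnase4 holds 82.5% to 84.7% of the untreated libraries.

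IL-4 raised all 5 genes that passed the filter in both gels. In low-collagen gels 13.2% of the 11852 genes tested were called higher and 40.4% lower, with a median difference of all genes of −0.19, and median-ratio rescaling of the libraries turned the 1567 higher and 4784 lower calls into 2767 and 2530. Against that background the 5 genes were all called higher, with a median of 1.54. Rnase4 rose by 1.54 (SE 0.0669, limma adjusted p = 3.88e-06), Ang by 1.37 (SE 0.0919, adjusted p = 3.66e-05) and Rnase6 by 1.34 (SE 0.199, adjusted p = 0.00207). The fitted differences of Rnase2a (9.89) and Ear2 (4.78) are set by the pseudocount, since both were listed at 0 without IL-4. Rnase2a ranked 2 and Ear2 ranked 15 from the top of all fitted differences in this comparison. Both passed the filter only through IL-4 libraries, so their calls for IL-4 on any surface are no independent evidence.

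In high-collagen gels 11.5% of the genes tested were called higher with IL-4 and 22.8% lower, with a median difference of −0.10, and the 1366 higher and 2698 lower calls became 2077 and 1703 after rescaling. The 5 genes were again all called higher, with a median of 1.57. Rnase6 rose by 1.57 (SE 0.199, limma adjusted p = 0.00153), Rnase4 by 1.49 (SE 0.0669, adjusted p = 8.42e-06), Ang by 1.40 (SE 0.0919, adjusted p = 5.07e-05) and Ear2 by 2.15 (SE 0.224, adjusted p = 0.000574). The fitted rise of Rnase2a was 8.65, from libraries at 0 and 0.273 TPM, and that of Ear2 started from 0.616 and 0.257 TPM. The sizes of both are set by the pseudocount, and that of Ear2 ran from 1.97 to 3.43 over the alternatives.

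On TC plates 4 of the 5 genes were called higher with IL-4 and 1 lower, where 14.7% of the 11865 genes tested were called higher and 24.0% lower (1745 and 2853, or 2237 and 2400 after rescaling). Their median was 1.22, and that of all genes −0.06. Ang rose by 1.22 (SE 0.0876, limma adjusted p = 7.34e-06), Rnase4 by 1.11 (SE 0.0644, adjusted p = 1.76e-06) and Ear2 by 1.30 (SE 0.236, adjusted p = 0.00313), while Rnase6 fell by 0.91 (SE 0.204, adjusted p = 0.00994). The fitted rise of Rnase2a was 6.62. The sizes of the rises of Rnase2a and Ear2 are set by the pseudocount here too, since both were at or near 0 on untreated plates.

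**Figure D5:**
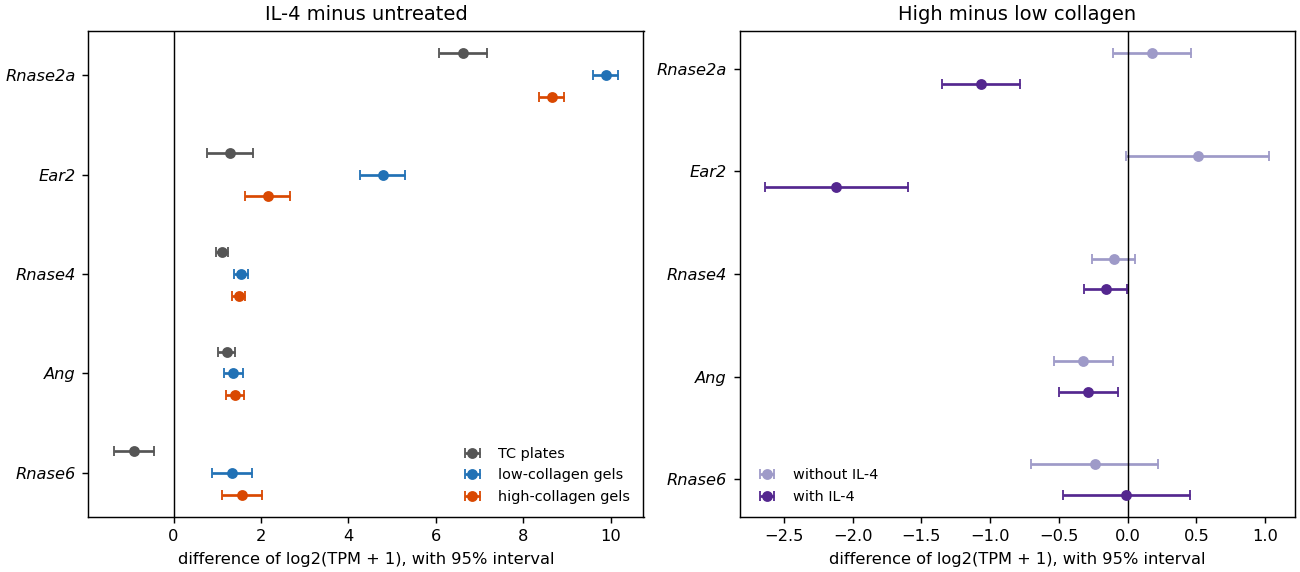
Differences of log2(TPM + 1) from limma with 95% intervals for the 5 genes that passed the filter, IL-4 minus untreated on each surface (left) and high minus low collagen without and with IL-4 (right). Rnase6 lies at −0.91 on TC plates and at 1.34 and 1.57 in the gels, and with IL-4 the intervals of Rnase2a, Ear2 and Ang lie below 0 on the right, where that of Rnase4 ends at 0 and that of Rnase6 spans it.

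The IL-4 response of Rnase4 was larger in gels than on plates. That of Rnase6 changed direction, from −0.91 on plates to 1.34 in low- and 1.57 in high-collagen gels. Rnase2a and Ear2 were called as well, but both were at or near 0 without IL-4. The values of Rnase2a and Ear2 therefore restate their levels with IL-4 on a scale set by the pseudocount. In low-collagen gels minus TC plates 9.30% of genes were called higher (1104 higher and 2215 lower, or 1733 and 1200 after rescaling), and the median of all genes was −0.12 against 2.25 for the 5 genes. The response of Rnase6 differed by 2.25 (SE 0.289, limma adjusted p = 0.00136), and that of Rnase4 was larger by 0.43 (SE 0.0911, adjusted p = 0.0158). The fitted values were 3.49 for Ear2 (adjusted p = 0.000274) and 3.27 for Rnase2a (adjusted p = 0.000495). For Ang the difference was 0.15 (95% interval −0.13 to 0.43, adjusted p = 0.476), and it was called without the first low-collagen library with IL-4 (0.28, adjusted p = 0.158).

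For high-collagen gels minus TC plates 8.66% of genes were called higher (1028 higher and 1022 lower, or 1323 and 829 after rescaling), and the same 4 genes were called, with a median of 0.86 over the 5 and −0.03 over all genes. Rnase6 differed by 2.48 (SE 0.289, limma adjusted p = 0.00113), Rnase2a by 2.03 (adjusted p = 0.00728), Rnase4 by 0.38 (adjusted p = 0.0381) and Ear2 by 0.86 (adjusted p = 0.182). The call of Ear2 was lost without either untreated plate library (adjusted p = 0.310 and 0.305), the first plate library with IL-4 (0.383), the second untreated high-collagen library (0.367) or either high-collagen library with IL-4 (0.336 and 0.273). With a pseudocount of 0.1 the value of Ear2 turned to −0.52, and Rnase2a was no longer called there (2.45, adjusted p = 0.320). Ang was at 0.19 (95% interval −0.09 to 0.46, adjusted p = 0.451).

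Between the gels with IL-4, Ear2 and Rnase2a differed most among the 5 genes that passed the filter. Here 6.99% of genes were called lower in high than in low collagen (828 lower and 1672 higher, or 1319 and 1249 after rescaling), and of the 5 genes Ear2, Rnase2a and Ang were called lower. The median was −0.29 for the 5 genes and 0.06 for all genes. The study named Ear2 and Rnase2a for this fall on these same samples. Both also passed the filter only through IL-4 libraries, so their calls are no independent evidence. Ang differed by −0.29 (SE 0.0919, limma adjusted p = 0.120), and this call rested on single libraries: without the second low-collagen library with IL-4 it was −0.16 (adjusted p = 0.451), and it was lost as well without either high-collagen library with IL-4 (adjusted p = 0.252 and 0.359). Rnase4 differed by −0.16 (95% interval −0.31 to −0.00, adjusted p = 0.210) and was not called, although it was after rescaling (−0.23, adjusted p = 0.147) and without either untreated low-collagen library or the first high-collagen library with IL-4 (adjusted p = 0.181 to 0.196). Rnase6 differed by −0.01 (95% interval −0.47 to 0.45, adjusted p = 0.984). For Ear2 the difference was −2.12 and for Rnase2a −1.06. The latter was not called at a pseudocount of 0.1 (limma adjusted p = 0.257), where the difference stayed at −1.06 and the SE went from 0.122 to 0.500.

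Without IL-4, 4.79% of genes were called lower in high than in low collagen and 1 of the 5 genes was, with medians of −0.10 for the 5 and −0.02 for all genes. That gene was Ang, at −0.32 (SE 0.0919, limma adjusted p = 0.155), and its call was lost in 11 of 16 alternatives, among them each of the 4 that left out an untreated gel library (adjusted p = 0.267 to 0.377) and both that left out a high-collagen library with IL-4 (0.220 and 0.222). Rnase4 was at −0.10 (95% interval −0.26 to 0.05) and Rnase6 at −0.24 (−0.70 to 0.22). Ear2 was at 0.51 (adjusted p = 0.327), from 0 in low-collagen gels to 0.616 and 0.257 TPM, and was called at a pseudocount of 0.1 (2.34, adjusted p = 0.0690).

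The difference in IL-4 response between high- and low-collagen gels was called lower in 0.169% of genes (20 lower and 23 higher, or 24 and 15 after rescaling), and in 2 of the 5 genes. These were Ear2 (−2.63, limma adjusted p = 0.0546) and Rnase2a (−1.24, adjusted p = 0.0919). Since both are near 0 without IL-4, this repeats their difference between the gels with IL-4 on a scale set by the pseudocount. Leaving out the second library of low- or of high-collagen gels with IL-4 ended both calls (adjusted p = 0.238 and 0.248 for Ear2, 0.382 and 0.391 for Rnase2a), and the call of Rnase2a was also lost without the first library of either (0.296 and 0.273) or without the second untreated low-collagen library (0.274). Ang (0.04, 95% interval −0.27 to 0.34), Rnase4 (−0.06, −0.28 to 0.16) and Rnase6 (0.23, −0.42 to 0.88) were not called, with medians of −0.06 for the 5 and 0.09 for all genes.

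With IL-4, all 5 genes were called higher in gels than on TC plates. Of these, Rnase2a and Ear2 passed the filter only through IL-4 libraries, which are the ones compared here. Their calls and p-values are therefore no independent evidence. For low-collagen gels 22.8% of genes were called higher (2708 higher and 6198 lower, or 4325 and 4234 after rescaling), and the median was 2.68 for the 5 genes and −0.28 for all genes. Ear2 stood at 3.49, Rnase2a at 2.82, Rnase6 at 2.68, Rnase4 at 0.89 and Ang at 0.84, with limma adjusted p-values from 1.79e-06 to 2.44e-05. For high-collagen gels 26.5% were called higher (3148 higher and 5704 lower, or 4476 and 4311 after rescaling), with medians of 1.37 and −0.20. Rnase6 stood at 2.67, Rnase2a at 1.76, Ear2 at 1.37, Rnase4 at 0.73 and Ang at 0.56, with adjusted p-values from 3.25e-06 to 0.000651.

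Without IL-4 the differences between gels and plates were at most 0.69 in size among the 5 genes. The largest was that of Ang in low-collagen gels, which stood at 0.84 with IL-4. In low-collagen gels 28.5% of genes were called higher and 44.3% lower than on plates (3383 and 5257, or 4406 and 4265 after rescaling), and the 5 genes had 3 higher and 1 lower, with medians of 0.43 and −0.13. Ang was higher by 0.69 (limma adjusted p = 8.69e-05) and Rnase4 by 0.46 (adjusted p = 0.00018). Rnase6 was higher by 0.43 (adjusted p = 0.0965), which was lost without the second untreated low-collagen library (0.12, adjusted p = 0.623) or the second untreated plate library (0.39, adjusted p = 0.253). The lower call was Rnase2a (−0.45, adjusted p = 0.139), which reflects the single plate library at 0.865 TPM: without it the difference was 0, and the call was also lost without either untreated low-collagen library (adjusted p = 0.266 and 0.258). Ear2 was at 0 on both surfaces.

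High-collagen gels against plates gave 28.0% of genes called higher without IL-4 (3318 higher and 5403 lower, or 4399 and 4349 after rescaling), with medians of 0.36 for the 5 genes and −0.16 for all. Ang (0.37, limma adjusted p = 0.00433), Rnase4 (0.36, adjusted p = 0.000895) and Ear2 (0.51, adjusted p = 0.0872) were called higher, the last of them not without the first untreated high-collagen library (0.33, adjusted p = 0.353). Rnase6 was at 0.19 (95% interval −0.27 to 0.65) and Rnase2a at −0.28 (−0.82 to 0.27). Without the first untreated plate library Rnase2a was called lower there (−0.73, adjusted p = 0.00551), and without the second it was at 0.17.

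Rnase2b, Ear6 and Ear10 entered a fit only when no filter was set, in which 20542 genes of the gel libraries were tested. In low-collagen gels Rnase2b then rose with IL-4 (1.37, limma adjusted p = 0.0140), was lower in high than in low collagen with IL-4 (adjusted p = 0.108) and was, over all 12 libraries, higher in low-collagen gels than on plates with IL-4 (1.02, adjusted p = 0.0118). Its IL-4 response was also called larger in low-collagen gels than on plates (1.30, adjusted p = 0.0824). Rnase2b was listed at 0 in both untreated low-collagen libraries and stayed under 2 TPM throughout. The sizes of these differences are therefore set by the pseudocount. The share of all genes called without a filter is not given, so these calls have no background beside them. Ear6 and Ear10 were called in none of the comparisons, and Ear1 had no value above 0 to compare.

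Among other ribonucleases and their partners, a list of 17 genes, 16 were in the table and 6 averaged 1 TPM or more. Ang2, a close relative of Ang, was listed at 0 in all 6 untreated libraries. IL-4 gave it 10.2 and 10.1 TPM on TC plates, 14.9 and 18.99 TPM in low-collagen gels and 8.29 and 6.37 TPM in high-collagen gels. With IL-4 it was lower in high than in low collagen by 1.11 on the log2 scale (SE 0.209, limma adjusted p = 0.0316), while its difference in IL-4 response between the gels was not called (−1.11, adjusted p = 0.359). Against TC plates with IL-4, Ang2 was lower in high-collagen gels (−0.43, adjusted p = 0.0672), where Rnase2a and Ear2 were higher, and higher in low-collagen gels (0.67, adjusted p = 0.00994), as both of these were.

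Rnh1, the cytosolic inhibitor that binds RNase A-type enzymes, was lower in gels than on plates. Untreated it was at 436 and 439 TPM on TC plates, 212 and 211 TPM in low-collagen gels and 190 and 198 TPM in high-collagen gels. With IL-4 it was at 454 and 442, 305 and 301, and 274 and 260 TPM in the same order. IL-4 raised it in both gels, by 0.52 (limma adjusted p = 0.000466) in low and 0.46 (adjusted p = 0.00128) in high collagen, and gave 0.03 (95% interval −0.07 to 0.14) on TC plates. With IL-4 it was lower in high than in low collagen (−0.18, adjusted p = 0.113).

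Other genes of the list went the opposite way with IL-4 in gels. Rnaset2b and Rnaset2a, which encode the lysosomal RNase T2, and Plxnb2, a receptor of angiogenin, were called lower with IL-4 in low- and in high-collagen gels, as were 40.4% and 22.8% of all genes tested. In low-collagen gels the falls were 0.37 for Rnaset2b (adjusted p = 0.00150), 0.56 for Rnaset2a (adjusted p = 0.0316) and 0.39 for Plxnb2 (adjusted p = 0.00757), by limma. In high-collagen gels they were 0.31 for Rnaset2b (adjusted p = 0.00593), 0.36 for Plxnb2 (adjusted p = 0.0180) and 0.33 for Rnaset2a (95% interval −0.70 to 0.03, adjusted p = 0.197), whose IL-4 and untreated libraries overlapped there. On TC plates these 3 genes were called lower as well. Rnaset2a and Rnaset2b are near copies of each other whose reads may be exchanged.

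The genes whose profile over the 12 libraries was most like that of each ribonuclease were found by the Pearson correlation of log2(TPM + 1). The points share their 12 libraries, of which 6 had IL-4, so the values describe these libraries only. For Rnase2a they were Socs1, an inhibitor of cytokine receptor signalling (r = 0.999), Ccl8, a chemokine (0.993), and Etv3, an ETS factor (0.991). Socs1 ran from 0.678 to 183 TPM. For Ear2 they were Mfge8 (0.951), which tethers dying cells to phagocytes, Pex26 (0.947), a peroxisome protein, and Furin (0.946), a proprotein convertase. For Rnase4 they were Tnfaip8 (0.988), Cish (0.986), another inhibitor of cytokine signalling, and Klf4 (0.983), a transcription factor. Ang had Tnfaip8 (0.983), Pycard (0.978), the inflammasome adaptor, and Klf4 (0.974). Rnase6, whose profile falls on plates and rises in gels, had Pim1 (0.965), a kinase, Sdf4 (0.964) and St3gal4 (0.955), a sialyltransferase. Between the ribonucleases themselves r was 0.989 for Rnase4 and Ang. Rnase2a was closer to Rnase4 (0.957) and Ang (0.937) than to Ear2 (0.888), and Ear2 was also closer to Rnase4 (0.924) and Ang (0.911) than to Rnase2a. Since Rnase2a and Ear2 were at or near 0 without IL-4, their r depend on the pseudocount. Both had the same order of conditions with IL-4. Rnase6 had r from 0.494 (with Rnase2a) to 0.699 (with Ear2).

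Because the Ear genes take their name from eosinophils, markers of that cell were read in the same libraries. Of 8 eosinophil markers, 7 were above 0 in some library and 1, Cebpe, averaged at least 1 TPM, while Epx, which encodes the peroxidase of eosinophil granules, was at 0 in all 12. Their summed level was 2.25 to 5.06 TPM. Untreated and with IL-4, it was 3.34 and 5.06 against 4.31 and 4.54 TPM on TC plates, 3.07 and 2.95 against 2.25 and 2.85 TPM in low-collagen gels, and 2.53 and 2.62 against 3.15 and 3.31 TPM in high-collagen gels. Siglecf, a surface marker of eosinophils and alveolar macrophages, went from 0.219 and 0.236 to 0.963 and 1.37 TPM with IL-4 on TC plates. It went from 0.640 and 0.284 to 0.567 and 0.557 TPM in low-collagen gels and from 0.846 and 0.834 to 2.22 and 1.20 TPM in high-collagen gels. The part of such cells in the levels of the Ear and Rnase2 genes was not tested. The 6 macrophage markers were all expressed, and their sum was 17435 to 53386 TPM, most of it Lyz2 (13223 to 48901 TPM). The markers did not move together, as Lyz2 was highest in untreated high-collagen gels and lowest on TC plates with IL-4, and Cd68 the reverse (1441 ± 31.8 and 2818 ± 45.8 TPM, SD, n = 2). Markers of mast cells and basophils (0 to 0.190 TPM in sum) and of fibroblasts (0.0608 to 0.668 TPM) were near 0, with 0 genes of either list at a mean TPM of 1. Neutrophil markers summed to 6.02 to 34.5 TPM, with Ly6g at 0 throughout. Their sum was higher in gels (15.5 to 34.5 TPM) than on plates (6.02 to 10.9 TPM), as were Rnase4 and Ang within each treatment. Of the markers, S100a9 was higher in every gel library (7.87 to 17.7 TPM) than on plates (0.422 to 3.59 TPM). S100a8 overlapped, at 2.93 and 4.69 TPM in high-collagen gels with IL-4 and 2.79 and 6.17 TPM on plates with IL-4. Ltf and Cxcr2 also overlapped between gels and plates. The part of such cells in the differences of Rnase4 and Ang was not tested.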

How the data were processed

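Poly(A) RNA of 12 BMDM libraries was measured. The authors made stranded libraries, sequenced paired ends, quantified them with kallisto 0.46.1 on Ensembl release 90 transcripts of GRCm38 and deposited TPM per gene, which keep no depth. How transcripts were joined into genes is not given in the sources used here. Of 34456 rows, 129 repeats were collapsed. Conditions came from the labels. Values were taken as log2(TPM + 1) and fitted with limma 3.58.1 in R 4.3.3, with a mean per condition, a mean-variance trend, Benjamini-Hochberg adjustment, a filter at a mean of 1 TPM and an adjusted p under 0.2. The 8 gel libraries formed one fit (11852 genes) and all 12 another (11865 genes) for comparisons with plates. The procedure was tested on simulated data. Words and gene positions came from GENCODE M21 of GRCm38 and windows from RefSeq. Software for tables and plots was matplotlib 3.10.9, numpy 2.4.6, pandas 2.3.3 and python 3.11.15.

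The 9 genes and all lists were chosen with earlier results of these data known. The text names all 9 genes, the other ribonucleases that averaged 1 TPM or more (except 1 that is not reported here), and for each of the 5 expressed genes the 3 genes with the highest correlation among those averaging 5 TPM or more. Alternatives comprised median-ratio rescaling, no trend, 0.1 as the pseudocount, a filter at 5 TPM or none, blocking on the replicate number, 0.05 as the threshold, other libraries in the fit, and each library left out.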

Additional observations from a re-analysis of the deposited data

Results flagged for a closer look

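The IL-4 response differed between surfaces by the interaction term of limma for several of the genes, on the log2(TPM + 1) scale. For Rnase2a and Ear2, which were at or near 0 without IL-4, its size is set by the pseudocount. High- minus low-collagen gels gave −2.63 for Ear2 and −1.24 for Rnase2a. Low-collagen gels minus TC plates gave 3.49 for Ear2, 3.27 for Rnase2a, 2.25 for Rnase6 and 0.43 for Rnase4. High-collagen gels minus TC plates gave 2.48 for Rnase6, 2.03 for Rnase2a, 0.86 for Ear2 and 0.38 for Rnase4. The 2 contrasts with plates share the plate libraries, and the contrast between the gels shares gel libraries with each of them, so they are not independent of each other. Rnase6 is the gene for which the groups moved in opposite directions, with both IL-4 libraries below both untreated ones on TC plates and above them in both gels.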

How the results depend on the processing

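Of 1095 alternatives run for 60 gene-by-comparison results, 1027 kept the direction and the side of the threshold, 49 lost a call, 10 gained a call and 9 changed sign. The changes touched small or pseudocount-bound differences, except for Rnase2a in high against low collagen with IL-4. Its call was lost at a pseudocount of 0.1, where the difference stayed at −1.06 and the SE went from 0.122 to 0.500. The cause of the changes was not tested. For high against low collagen without IL-4, the number of genes called of the 5 went from 1 to 2 with a pseudocount of 0.1 and to 0 with no filter, no trend, rescaling, the replicate block or an adjusted p under 0.05, and it was 0 to 1 with a library left out. For the IL-4 response in high- minus low-collagen gels it went from 2 to 1 with a pseudocount of 0.1 or all 12 libraries in the fit, to 0 at 0.05, and was 0 to 2 with a library left out. For low-collagen gels against plates without IL-4 it went from 4 to 2 at 0.05, and was 2 to 4 with a library left out. For the IL-4 response in high-collagen gels minus plates it went from 4 to 2 with a pseudocount of 0.1. The sign changed for Ang in the IL-4 response of high- minus low-collagen gels with rescaling (−0.055), and for Ear2 in that of high-collagen gels minus plates with a pseudocount of 0.1 (−0.52). With a library left out, Rnase6 ranged from −0.096 to 0.077 for high against low collagen with IL-4, from −0.55 to 0.070 without IL-4 and from −0.079 to 0.54 for their interaction, in which Rnase4 ranged from −0.13 to 0.015 and Ang from −0.093 to 0.16. Rnase2a ranged from −0.73 to 0.17 for high-collagen gels against plates without IL-4. Same-numbered libraries did not deviate together, as the correlation of their deviations was −0.123 to 0.109 over 15 pairs of conditions. Whether libraries with the same replicate number share a culture or animal cannot be read from this. With the number as a block, calls over all genes went from 951 to 586 for high against low collagen without IL-4 and from 43 to 18 for the interaction of the gels, and the 4 genes called for high-collagen gels minus plates became 3. Depth limits the values under 1 TPM, for which no interval can be given.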

Other observations

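Ear-ps10, a pseudogene of the Ear family that was picked out after its values were seen, was listed at 0 in the 6 untreated libraries. With IL-4 it was at 1.50 and 0 TPM on TC plates, at 1.63 and 1.34 TPM in low-collagen gels and at 0.452 and 0.848 TPM in high-collagen gels. In low-collagen gels its level was that of Rnase2b, and some of its reads may belong to other members of the family.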
